A study of Mus musculus with 12 samples.

Results

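RNA-seq of C2C12GFP cells was examined for 43 mouse genes of homologous recombination, the Fanconi anemia pathway and the checkpoint that works with them. The members were taken by gene name from a fixed list, and the 43 names each matched 1 of the 55536 genes in the count table. The list was drawn up with earlier results of these data known. Shares of members set beside those of all genes are therefore descriptions, and no set test was made. *Mre11a* is the name used in the annotation for the gene also called *Mre11*. The genes were grouped by role into BRCA proteins and their partners (6), filament complexes and RAD54 motors (7), the Fanconi core complex with its E2 enzyme (9), the Fanconi ID pair (2), end resection (6), dissolution and resolution of joint molecules (7), and checkpoint kinases with their partners (6).

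C2C12GFP is an immortalized mouse skeletal myoblast line that expresses green fluorescent protein, and C2C12 cells leave the cell cycle and fuse into myotubes when serum is lowered. The cells were differentiated on uncoated plates (control) or on 1 of 3 coatings, which were Collagen I, fibronectin, and Geltrex™, a basement membrane matrix made mainly of laminin, Collagen IV, and entactin. Each of the 4 groups had 3 samples, 12 in all, and the cell line and differentiation medium were the same in all groups. The day at which RNA was taken is not given in the sources used here, nor do they state whether the 3 samples of a group were separate cultures, so the p-values measure only the spread between these samples. Levels are given as CPM, the read count of a gene per 1000000 counts of its library, with libraries scaled by the trimmed mean of M-values (TMM). Library totals lay between 22520404 and 27351766 counts. A gene was tested when it passed edgeR's filter on low counts (about 10 counts in 3 samples), and a change was called when edgeR's quasi-likelihood test gave a p of at most 0.05 after adjustment by the Benjamini-Hochberg method for the 14499 genes tested. All 43 members passed the filter. The lowest counts belonged to *Rmi2*, with 4 to 21 counts in a sample, and *Eme1*, with 6 to 67.

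As background, homologous recombination repairs a broken chromosome by copying the intact sister chromatid. Nucleases first trim the broken ends to single strands, BRCA2 and its partners prepare them for strand exchange, RAD54 motors help them to invade the sister, and BLM, topoisomerase, and structure-selective nucleases take the joined molecules apart. The Fanconi proteins recognize DNA strands that are crosslinked to each other, attach ubiquitin to the FANCD2 and FANCI pair, and pass the lesion to recombination, while ATR, ATM, and the CHK kinases halt the cycle. Because a sister chromatid is needed, much of this machinery is used in S and G2 phase, and many of its genes are known to be expressed at low levels in cells that have left the cycle.

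Most of the 43 genes stood higher on fibronectin and on Geltrex™ than on uncoated plates. On fibronectin 26 of 43 rose, 14 of them by at least 2-fold, and the median log2 fold change of the members was 0.57. Across all genes tested, 17.1% were called higher on fibronectin and 2.42% were called higher by at least 2-fold, with a median of -0.016. By edgeR 0 members fell on fibronectin (14.7% of all genes did), 1 had an unadjusted p under 0.05 in that direction, and DESeq2 also called 0. On Geltrex™ 21 of 43 rose, 13 of them by at least 2-fold, and 1 fell, with a median of 0.45 against -0.012 over all genes. Of all genes tested, 16.4% were called higher on Geltrex™, 4.15% higher by at least 2-fold, and 16.6% lower. The 3 Geltrex™ samples lay closer to each other than those of any other group, and when they were summed and treated as 1 sample, assumed to vary like the other groups, 15 genes passed as higher and 0 as lower. The calls lost in this way were those of *Ube2t*, *Blm*, *Mre11a*, *Atr*, *Rmi2*, *Rbbp8*, and *Slx4*. The 21 genes called higher on Geltrex™ were all among the 26 called higher on fibronectin. Both comparisons use the same 3 control samples, so their agreement is not independent. Of the other 5 genes that rose on fibronectin, *Atm*, *Dna2*, *Eme1*, and *Fancb* were not called on Geltrex™ and *Slx4* was called lower there. Of these 5, *Slx4* alone passed the direct test between fibronectin and Geltrex™. In 24 of the 43 genes the 6 fibronectin and Geltrex™ samples were all above the 6 control and Collagen I samples, which held for 10.9% of all genes tested. The reverse order held for 0 of the 43 and for 9.34% of all genes. Of the calls, 18 of 26 on fibronectin and 18 of 21 on Geltrex™ were kept when each of the 12 samples was left out in turn.

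Cell cycle genes moved in the same samples. Of 31 proliferation genes (the MCM helicase, cyclins, mitotic kinases, E2F factors, and the like), 28 rose on fibronectin and 28 on Geltrex™, with medians of 1.29 and 1.28 on the log2 scale. Their summed level was 796 to 911 CPM in the control, 654 to 679 on Collagen I, 1589 to 1972 on fibronectin, and 1645 to 1744 on Geltrex™, and each of the 31 genes had counts. Most of the listed myoblast and myotube markers moved the other way: 16 of 19 tested fell on fibronectin and 17 of 19 on Geltrex™. Their summed level was 9003 to 10050 CPM in the control, 9642 to 10268 on Collagen I, 2971 to 3337 on fibronectin, and 4074 to 4521 on Geltrex™, and none of the 20 markers was at 0 throughout. The list mixes both stages, and *Myf5* and *Myod1*, expressed in myoblasts, differed less than the myotube gene *Myh3*. *Myf5* had 31.8 to 36.2 CPM in the control, 34.0 to 38.5 on fibronectin, and 30.8 to 34.4 on Geltrex™. *Myod1* had 118 to 134, 106 to 114, and 105 to 110 CPM, and *Myh3* 2127 to 2483, 434 to 656, and 621 to 750. *Pax7* had at most 19 counts in a sample. Markers of macrophages, endothelial cells, and adipocytes were scarce, but those of fibroblasts were not. Summed levels stayed at or below 1.59 CPM for 5 macrophage markers (*Adgre1* had no counts), 3.49 CPM for 5 endothelial markers, and 0.431 CPM for 5 adipocyte markers. Fibroblast markers summed to between 5189 and 6518 CPM, with 2 of the 4 tested lower on fibronectin and 2 lower on Geltrex™, and *Thy1* had no counts. The part of the proliferation and myotube markers in the changes of the repair genes was not tested. In bulk RNA, more cells that express a gene and more RNA of it per cell cannot be told apart.

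**Figure D1:**
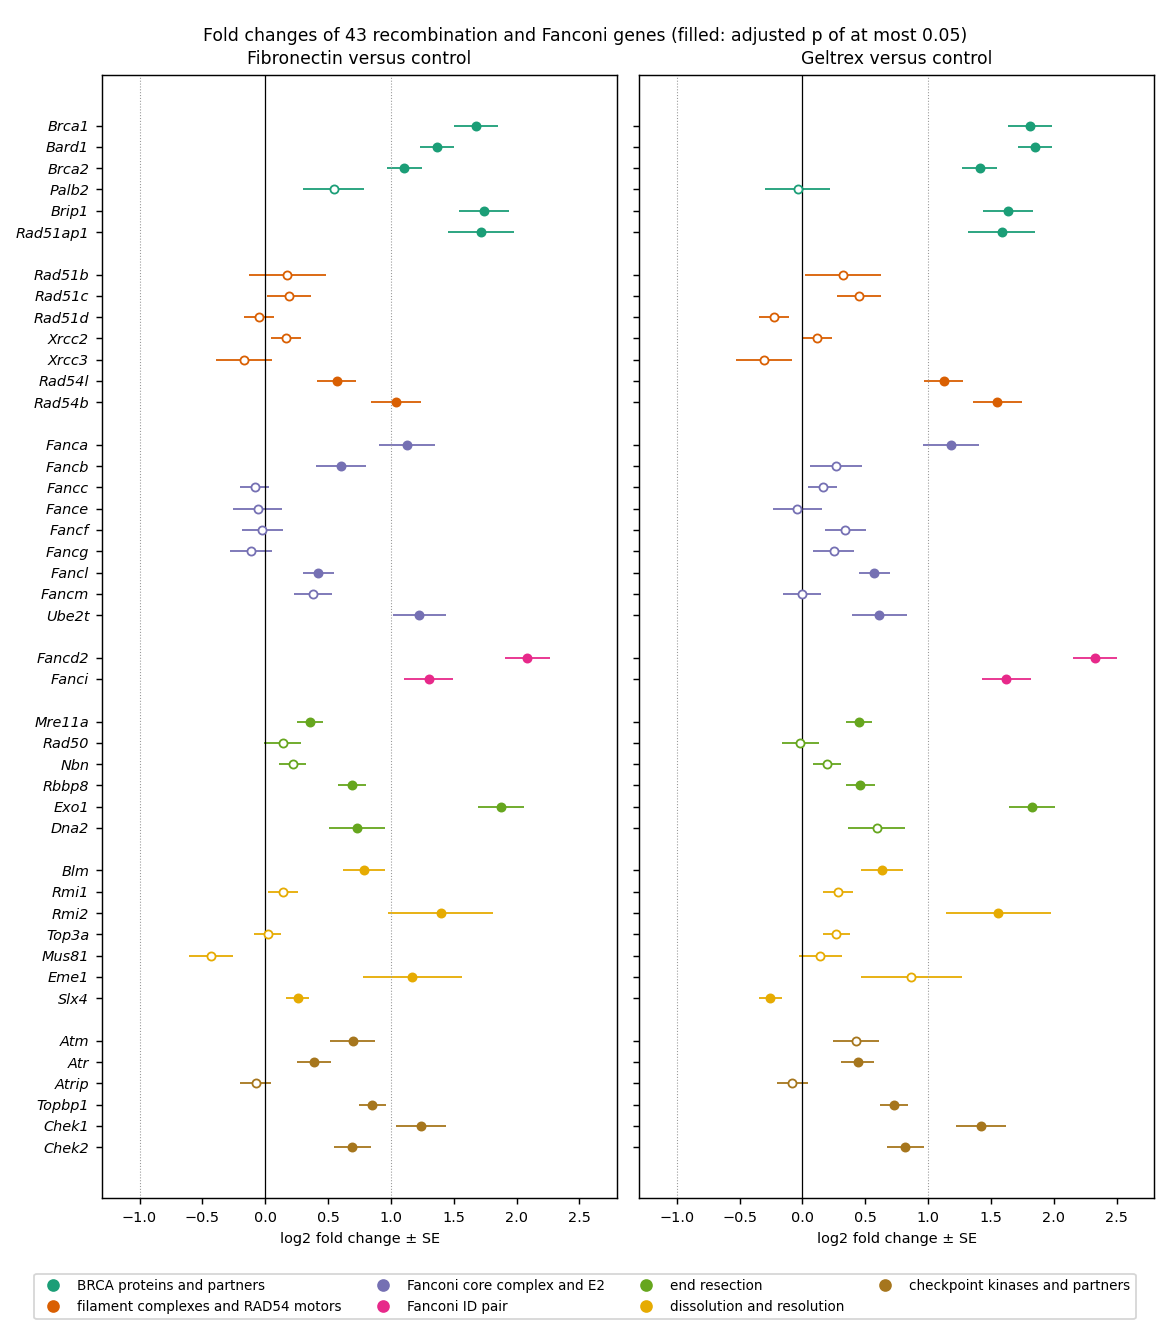
Log2 fold change (x axis, points, with bars of 1 SE) of the 43 genes (y axis, grouped and colored by role) on fibronectin (left) and Geltrex™ (right) relative to the control, 3 samples per group. Filled points passed an adjusted p of at most 0.05 (edgeR), 26 on the left and 22 on the right, and dotted lines mark a 2-fold change. *Fancd2* lies farthest to the right in both panels.

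The BRCA proteins and their partners act on resected DNA before strand exchange, and 5 of the 6 genes rose on both coatings (fibronectin and Geltrex™), each by at least 2-fold. *Brca1* (ENSMUSG00000017146, chr11:101488764-101551955, minus strand, GRCm38) encodes a ubiquitin ligase that promotes resection and recruits BRCA2. Its level was 3.54, 4.59, and 5.56 CPM in the control, 3.42, 2.82, and 3.97 on Collagen I, 13, 17.6, and 13.2 on fibronectin, and 14.3, 18.2, and 15.4 on Geltrex™. The 6 fibronectin and Geltrex™ samples were all above the control and Collagen I samples, and the log2 fold change against the control was 1.68 ± 0.18 (SE, edgeR adjusted p = 3.64e-06) on fibronectin and 1.81 ± 0.18 (SE, edgeR adjusted p = 1.23e-06) on Geltrex™. *Bard1*, the obligate partner of BRCA1 in that ligase, had 3.06, 3.6, and 2.85 CPM in the control, 3.12, 3.38, and 2.76 on Collagen I, 7.54, 8.58, and 8.47 on fibronectin, and 10.6, 12, and 11.7 on Geltrex™. Here too the fibronectin and Geltrex™ samples stood above the other 6, with log2 fold changes of 1.37 ± 0.14 (SE, edgeR adjusted p = 2.22e-06) on fibronectin and 1.85 ± 0.14 (SE, edgeR adjusted p = 6.47e-08) on Geltrex™. For *Brca2*, whose protein acts on the resected single strands, the samples held 7.12, 9.83, and 10.7 CPM in the control, 9.01, 8.58, and 9.62 on Collagen I, 17.9, 22.9, and 19 on fibronectin, and 22.7, 23.8, and 27.1 on Geltrex™. The increase was 1.11 ± 0.14 (SE, edgeR adjusted p = 2.49e-05) on fibronectin and 1.41 ± 0.14 (SE, edgeR adjusted p = 1.57e-06) on Geltrex™ on the log2 scale, and the lowest sample of these coatings stood at 17.9 CPM against 10.7 CPM in the highest control.

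*Brip1* encodes the helicase BACH1 (FANCJ), which binds the BRCT repeats of BRCA1. Its values were 2.31, 3.93, and 3.69 CPM in the control, 1.73, 1.56, and 2.2 on Collagen I, 9.47, 14.2, and 9.63 on fibronectin, and 10.1, 10.8, and 10.1 on Geltrex™. *Brip1* rose by 1.74 ± 0.20 (SE, edgeR adjusted p = 8.47e-06) on fibronectin and by 1.64 ± 0.20 (SE, edgeR adjusted p = 1.24e-05) on Geltrex™ (log2), and fibronectin replicate 2 was the highest of the 12 samples. *Rad51ap1*, which encodes a stimulator of strand invasion, was measured at 0.955, 2.2, and 1.66 CPM in the control, 0.823, 1.19, and 1.51 on Collagen I, 4.23, 6.66, and 5.09 on fibronectin, and 4.91, 4.28, and 5.37 on Geltrex™. Its log2 fold changes were 1.72 ± 0.26 (SE, edgeR adjusted p = 0.000143) and 1.59 ± 0.27 (SE, edgeR adjusted p = 0.000247) on fibronectin and Geltrex™, and the samples of these coatings did not overlap with the control. *Palb2*, the bridge between BRCA1 and BRCA2, was the exception: its mean was 1.37 ± 0.364 CPM (SD, n = 3) in the control, 1.99 ± 0.311 CPM on fibronectin, and, on Geltrex™, 1.33 ± 0.0742 CPM. Its log2 difference from the control was 0.54 ± 0.25 (SE, edgeR adjusted p = 0.104) on fibronectin, with a 95% interval that reached beyond 2-fold, and -0.04 ± 0.26 (SE, edgeR adjusted p = 0.932) on Geltrex™.

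**Figure D2:**
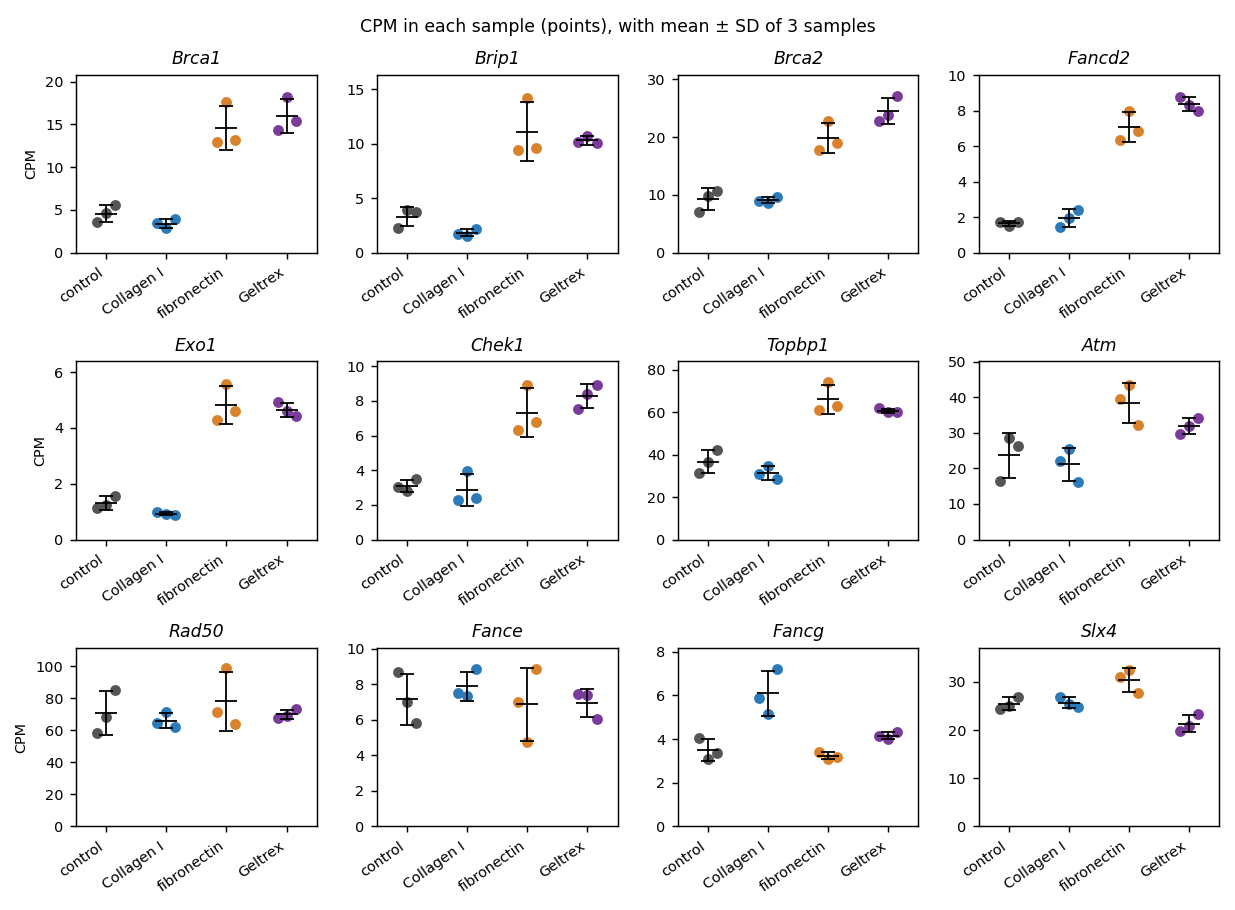
CPM (y axis, from 0) in each of the 12 samples (points) for 12 of the genes, with the mean and SD of the 3 samples of each group (lines). *Brca1*, *Brip1*, *Brca2*, *Fancd2*, *Exo1*, *Chek1*, *Topbp1*, and *Atm* have all fibronectin and Geltrex™ samples above all control and Collagen I samples, *Rad50* and *Fance* overlap in all groups, *Fancg* is highest on Collagen I, and *Slx4* is highest on fibronectin and lowest on Geltrex™.

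The next group divided between the RAD54 motors, both of which rose, and the 5 genes of the filament complexes (*Rad51b*, *Rad51c*, *Rad51d*, *Xrcc2*, and *Xrcc3*), of which 0 were called against the control on either coating by edgeR or DESeq2. Their proteins form small complexes that act in strand exchange. The log2 differences of these 5 genes from the control ran from -0.17 to 0.19 on fibronectin and from -0.31 to 0.45 on Geltrex™, and 0 and 1 of the 5 had an unadjusted p under 0.05. After *Rad51d*, which is given with the Collagen I comparisons, the 2 with the highest CPM were *Xrcc2* and *Xrcc3*. *Xrcc2* had means of 7.7 ± 0.654 CPM (SD, n = 3) in the control, 8.65 ± 0.42 CPM on fibronectin, and, on Geltrex™, 8.37 ± 0.467 CPM. For *Xrcc3* these means were 6.23 ± 1.82 CPM (SD, n = 3), 5.53 ± 1.51 CPM, and 5.04 ± 0.99 CPM. All 95% intervals for the 5 genes stayed within 2-fold except that of *Rad51b* on Geltrex™, so smaller changes cannot be told from none at this spread. Between coatings *Xrcc2* did pass, as it was called lower on Collagen I than on fibronectin (log2 difference -0.41) and Geltrex™ (-0.36). These calls were kept in 12 and 8 of the 12 analyses that left out 1 sample.

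*Rad54l* encodes RAD54, the motor that moves along DNA and helps in the exchange of strands. The samples held 2.98, 2.9, and 3.01 CPM in the control, 1.65, 1.71, and 2.16 on Collagen I, 4.46, 4.86, and 3.88 on fibronectin, and 7.0, 6.43, and 5.95 on Geltrex™. *Rad54l* rose by 0.57 ± 0.16 (SE, edgeR adjusted p = 0.0115) on fibronectin and by 1.12 ± 0.15 (SE, edgeR adjusted p = 3.53e-05) on Geltrex™ (log2), and the 3 Geltrex™ samples were all above the 3 fibronectin samples. *Rad54b*, its paralog, had 1.31, 1.76, and 1.4 CPM in the control, 2.08, 2.34, and 1.55 on Collagen I, 2.86, 3.47, and 2.91 on fibronectin, and 4.57, 4.24, and 4.37 on Geltrex™. The log2 fold changes of *Rad54b* were 1.04 ± 0.20 (SE, edgeR adjusted p = 0.000972) and 1.55 ± 0.19 (SE, edgeR adjusted p = 1.51e-05) on fibronectin and Geltrex™. *Rad54b* shares 35.8% of its exonic length with *Fsbp* on the same strand, and *Rad54l* shares 15.4% with *Lrrc41* on the opposite strand. The strand setting of the read counting is not given in the sources used here, so reads could be shared between such neighbors.

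In the Fanconi pathway the ubiquitylated pair and the E2 enzyme had larger fold changes on fibronectin than most of the core ligase. *Fancd2* (ENSMUSG00000034023, chr6:113531682-113597017, plus strand, GRCm38) encodes 1 of the 2 proteins that receive ubiquitin at a crosslink, and its levels were 1.75, 1.5, and 1.74 CPM in the control, 1.43, 1.97, and 2.42 on Collagen I, 6.35, 8.0, and 6.87 on fibronectin, and 8.76, 8.32, and 7.98 on Geltrex™. This was the largest increase among the 43 genes on both coatings, 2.08 ± 0.18 (SE, edgeR adjusted p = 4.24e-07) on fibronectin and 2.33 ± 0.18 (SE, edgeR adjusted p = 9.41e-08) on Geltrex™ on the log2 scale. *Fanci* encodes the other protein of the pair. Its values were 1.07, 1.61, and 1.66 CPM in the control, 0.867, 0.929, and 0.776 on Collagen I, 3.68, 3.98, and 3.07 on fibronectin, and 4.7, 4.45, and 4.24 on Geltrex™. *Fanci* rose by 1.30 ± 0.20 (SE, edgeR adjusted p = 0.000134) on fibronectin and by 1.62 ± 0.19 (SE, edgeR adjusted p = 1.04e-05) on Geltrex™ (log2), and 16.0% of its exonic length overlaps *Polg* on the opposite strand.

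*Ube2t* encodes the E2 enzyme that carries the ubiquitin to FANCD2. It was measured at 1.87, 1.61, and 1.7 CPM in the control, 1.04, 1.49, and 1.21 on Collagen I, 3.79, 3.73, and 4.62 on fibronectin, and 3.25, 1.98, and 2.71 on Geltrex™. The fibronectin samples were all above the Geltrex™ samples, and the log2 fold change against the control was 1.23 ± 0.21 (SE, edgeR adjusted p = 0.00038) on fibronectin and 0.61 ± 0.22 (SE, edgeR adjusted p = 0.0412) on Geltrex™. The Geltrex™ call of *Ube2t* was lost without control replicate 1, 2, or 3 and without Geltrex™ replicate 1 or 3. *Fanca*, a large scaffold subunit of the core complex, had 1.59, 2.09, and 2.04 CPM in the control, 1.34, 2.01, and 2.76 on Collagen I, 4.12, 4.77, and 3.65 on fibronectin, and 4.27, 3.83, and 4.91 on Geltrex™. *Fanca* rose by 1.13 ± 0.22 (SE, edgeR adjusted p = 0.00135) on fibronectin and by 1.18 ± 0.23 (SE, edgeR adjusted p = 0.000759) on Geltrex™ (log2), and 10.5% of its exonic length overlaps *Zfp276* on the opposite strand.

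Among the other 7 core subunits, *Fancl*, the E3 ligase subunit, was called higher on both coatings and *Fancb* on fibronectin. The fibronectin call of *Fancb* was lost without control replicate 1 or 3 and without fibronectin replicate 1 or 2, and that of *Fancl* without control replicate 3. The remaining 5, *Fancc*, *Fance*, *Fancf*, *Fancg*, and *Fancm*, were called on neither. *Fancm*, a DNA translocase that anchors the complex at the fork, had means of 17.3 ± 1.47 CPM (SD, n = 3), 22.6 ± 2.86 CPM on fibronectin, and, on Geltrex™, 17.3 ± 2.01 CPM, with log2 differences from the control of 0.38 ± 0.15 (SE, edgeR adjusted p = 0.064) and -0.01 ± 0.15 (SE, edgeR adjusted p = 0.98). DESeq2 called *Fancm* higher on fibronectin. *Fancc* averaged 8.76 ± 0.291 CPM (SD, n = 3) in the control, 8.27 ± 0.939 CPM on fibronectin, and, on Geltrex™, 9.79 ± 0.691 CPM. Its log2 differences were -0.08 ± 0.11 (SE, edgeR adjusted p = 0.624) and 0.16 ± 0.11 (SE, edgeR adjusted p = 0.313), both with 95% intervals within 2-fold.

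End resection turns a break into the single strand that recombination needs. In this group 4 of 6 genes rose on fibronectin (*Exo1*, *Dna2*, *Rbbp8*, and *Mre11a*) and 3 on Geltrex™ (all of these but *Dna2*). *Exo1* encodes the long-range 5′ exonuclease. Its levels were 1.11, 1.25, and 1.57 CPM in the control, 0.997, 0.929, and 0.863 on Collagen I, 4.27, 5.57, and 4.62 on fibronectin, and 4.91, 4.61, and 4.42 on Geltrex™. The samples on fibronectin and Geltrex™ were at least 4.27 CPM while no other sample was above 1.57 CPM, and the log2 fold changes were 1.88 ± 0.18 (SE, edgeR adjusted p = 1.65e-06) and 1.83 ± 0.19 (SE, edgeR adjusted p = 1.82e-06). Per length of exon, the 2 most abundant of the 43 genes belong to the MRN complex, which starts resection. *Rad50*, its ATPase, averaged 70.8 ± 13.6 CPM (SD, n = 3) in the control, 78 ± 18.6 CPM on fibronectin, and, on Geltrex™, 70.0 ± 2.89 CPM, with overlapping samples. *Nbn*, the subunit that binds ATM, averaged 35.8 ± 6.58 CPM (SD, n = 3), 41.7 ± 2.57 CPM, and 41 ± 1.51 CPM. Neither was called, with log2 differences of 0.14 ± 0.15 (SE, edgeR adjusted p = 0.502) and -0.02 ± 0.15 (SE, edgeR adjusted p = 0.946) for *Rad50* and of 0.22 ± 0.11 (SE, edgeR adjusted p = 0.137) and 0.20 ± 0.11 (SE, edgeR adjusted p = 0.186) for *Nbn*, and all 4 intervals stayed within 2-fold. The fibronectin call of *Mre11a*, the MRN nuclease, was lost without control replicate 1 or 3 and without fibronectin replicate 2, and that of *Dna2* without replicate 3 of either group.

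Genes for the separation of joined molecules gave mixed results. *Blm* encodes the helicase that unwinds double Holliday junctions together with topoisomerase IIIα and the RMI proteins. The samples held 3.58, 4.37, and 6.2 CPM in the control, 3.86, 3.72, and 3.28 on Collagen I, 7.87, 8.71, and 7.77 on fibronectin, and 7.22, 7.83, and 6.81 on Geltrex™. *Blm* rose by 0.79 ± 0.17 (SE, edgeR adjusted p = 0.00218) on fibronectin and by 0.63 ± 0.17 (SE, edgeR adjusted p = 0.00904) on Geltrex™ (log2), where the call was lost with summed Geltrex™ samples. *Rmi2*, a small subunit of that complex, had only 0.199, 0.183, and 0.297 CPM in the control, 0.173, 0.26, and 0.259 on Collagen I, 0.594, 0.377, and 0.816 on fibronectin, and 0.641, 0.824, and 0.541 on Geltrex™. Its log2 fold changes were 1.39 ± 0.42 (SE, edgeR adjusted p = 0.0191) and 1.56 ± 0.42 (SE, edgeR adjusted p = 0.00925), and the fibronectin call was lost without control replicate 1 or 2 and without fibronectin replicate 3, the Geltrex™ call without Geltrex™ replicate 2. The other subunits, *Rmi1* and *Top3a*, were called on neither coating. *Rmi1* averaged 28.2 ± 5.6 CPM (SD, n = 3) in the control, 31.1 ± 3.1 CPM on fibronectin, and, on Geltrex™, 34.3 ± 1.94 CPM. *Top3a*, the topoisomerase, averaged 15 ± 1.46 CPM (SD, n = 3), 15.2 ± 1.12 CPM, and 18.1 ± 1.27 CPM. The log2 differences of *Rmi1* and *Top3a* from the control were 0.14 and 0.02 on fibronectin. On Geltrex™ they were 0.28 (95% interval 0.01 to 0.56) and 0.27 (0.03 to 0.51), so both unadjusted intervals lay above 0. *Top3a* was called lower on Collagen I than on Geltrex™, by a log2 difference of -0.30.

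*Slx4* encodes a scaffold that holds several nucleases at a junction, and it was the 1 member with calls in opposite directions on the 2 coatings. Its values were 24.4, 25, and 27 CPM in the control, 27, 25.5, and 24.7 on Collagen I, 31.1, 32.6, and 27.7 on fibronectin, and 19.9, 20.8, and 23.3 on Geltrex™. Every fibronectin sample was above every control and Collagen I sample, and every Geltrex™ sample was below them. The changes were small, 0.26 ± 0.091 (SE, edgeR adjusted p = 0.0399) on fibronectin and -0.26 ± 0.093 (SE, edgeR adjusted p = 0.0445) on Geltrex™ (log2), and both calls were near the threshold. The fibronectin call was kept in 7 of the 12 analyses that left out 1 sample (lost without control replicate 1 or 2, fibronectin replicate 1 or 2, or Geltrex™ replicate 2). The Geltrex™ call was kept in 4 of 12 (those without Collagen I replicate 3, fibronectin replicate 2 or 3, or Geltrex™ replicate 3), and DESeq2 did not make it. The direct difference between fibronectin and Geltrex™ was 0.52 ± 0.092 (SE, edgeR adjusted p = 0.000935) and was kept in all 12. *Eme1*, the partner of the MUS81 nuclease, was measured at 0.676, 0.697, and 1.06 CPM in the control, 0.26, 0.78, and 1.08 on Collagen I, 1.23, 2.8, and 1.48 on fibronectin, and 1.49, 1.57, and 1.35 on Geltrex™. Its log2 fold change was 1.17 ± 0.39 (SE, edgeR adjusted p = 0.0319) on fibronectin and 0.86 ± 0.40 (SE, edgeR adjusted p = 0.114) on Geltrex™, and the fibronectin call was lost without control replicate 1 or 2 and without fibronectin replicate 2. *Mus81* itself had 15.1, 12.9, and 9.13 CPM in the control, 13.2, 14.5, and 14.7 on Collagen I, 9.69, 6.91, and 11 on fibronectin, and 14.5, 13.4, and 13.2 on Geltrex™. *Mus81* was lowest on fibronectin, with a log2 difference from the control of -0.43 ± 0.17 (SE, edgeR adjusted p = 0.0693).

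The checkpoint genes, which signal single-stranded DNA and breaks to the cell cycle, rose in 5 of 6 cases on fibronectin and in 4 of 6 on Geltrex™. *Chek1* encodes the kinase that ATR activates at stalled forks. Its levels were 3.02, 2.79, and 3.48 CPM in the control, 2.3, 3.94, and 2.37 on Collagen I, 6.31, 8.92, and 6.76 on fibronectin, and 7.52, 8.4, and 8.93 on Geltrex™. The increase was 1.24 ± 0.20 (SE, edgeR adjusted p = 0.000221) on fibronectin and 1.42 ± 0.20 (SE, edgeR adjusted p = 4.45e-05) on Geltrex™ (log2). *Chek2*, the kinase that acts downstream of ATM, had 4.37, 4.33, and 4.84 CPM in the control, 6.07, 6.21, and 4.92 on Collagen I, 7.02, 6.82, and 8.0 on fibronectin, and 7.18, 9.39, and 7.26 on Geltrex™. *Chek2* rose by 0.69 ± 0.15 (SE, edgeR adjusted p = 0.00227) and 0.82 ± 0.15 (SE, edgeR adjusted p = 0.000481) on the 2 coatings, and its Collagen I samples lay between the control and fibronectin samples. *Topbp1* encodes the activator of ATR. It was measured at 31.3, 36.5, and 42.1 CPM in the control, 30.8, 34.7, and 28.5 on Collagen I, 61.3, 74.1, and 63.2 on fibronectin, and 61.8, 60.1, and 60.3 on Geltrex™. Its log2 fold changes were 0.85 ± 0.11 (SE, edgeR adjusted p = 2.49e-05) on fibronectin and 0.73 ± 0.11 (SE, edgeR adjusted p = 8.50e-05) on Geltrex™, and all 6 samples stood above the control and Collagen I samples.

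The apical kinases start the signal. *Atm*, which responds to double-strand breaks, had 16.5, 28.4, and 26.2 CPM in the control, 22, 25.4, and 16.1 on Collagen I, 39.6, 43.5, and 32.3 on fibronectin, and 29.7, 32, and 34.1 on Geltrex™. *Atm* rose by 0.70 ± 0.18 (SE, edgeR adjusted p = 0.00804) on fibronectin, while on Geltrex™ its log2 difference was 0.43 ± 0.18 (SE, edgeR adjusted p = 0.0842), which did not pass. The difference between fibronectin and Geltrex™ for *Atm* was 0.27 ± 0.18 (SE, edgeR adjusted p = 0.309), so the 2 coatings were not shown to differ. *Atr*, which responds to single strands, had 17.5, 25.8, and 24.5 CPM in the control, 23.9, 26.3, and 19.7 on Collagen I, 30.2, 31.5, and 27 on fibronectin, and 29.9, 31.7, and 30.4 on Geltrex™. Its log2 fold changes of 0.39 ± 0.13 (SE, edgeR adjusted p = 0.035) and 0.44 ± 0.13 (SE, edgeR adjusted p = 0.018) passed on both coatings, although the fibronectin call was lost without control replicate 1 and without fibronectin replicate 1 or 2, and the Geltrex™ call without control replicate 1 or Geltrex™ replicate 2. *Atrip*, the partner that brings ATR to DNA, averaged 9.42 ± 0.933 CPM (SD, n = 3) in the control, 8.94 ± 0.76 CPM on fibronectin, and, on Geltrex™, 8.92 ± 0.737 CPM, with log2 differences of -0.08 ± 0.12 (SE, edgeR adjusted p = 0.675) and -0.08 ± 0.12 (SE, edgeR adjusted p = 0.658). *Atrip* shares 16.0% of its exonic length with *Trex1* on the same strand.

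Against the control, few of the genes passed the test on Collagen I. By edgeR 1 of 43 was called higher and 0 lower, against 0.200% and 0.917% of all genes, and the median log2 fold change was -0.03 against -0.0031 over all genes. At an unadjusted p under 0.05, 2 members were higher and 5 lower, and DESeq2 called *Rad54l* and *Brip1* lower. In either direction 7 of 43 members and 2143 of the 14499 genes tested had an unadjusted p under 0.05, which are similar shares. The 1 called gene was *Fancg*, a subunit that tethers the core complex. Its levels were 4.06, 3.08, and 3.35 CPM in the control, 5.89, 5.16, and 7.2 on Collagen I, 3.42, 3.1, and 3.18 on fibronectin, and 4.14, 4.0, and 4.33 on Geltrex™. The 3 Collagen I samples were above the other 9, and the log2 fold change against the control was 0.80 ± 0.16 (SE, edgeR adjusted p = 0.0243). The call was lost without control replicate 2 or 3, without Collagen I replicate 1 or 3, and when only the 6 samples of these groups were fitted. *Rad54l* and *Brip1* had log2 differences of -0.69 ± 0.17 (SE, edgeR adjusted p = 0.0615) and -0.86 ± 0.24 (SE, edgeR adjusted p = 0.089) by edgeR, with the 3 Collagen I samples below the 3 control samples in both. *Fanci* and *Exo1* had the same order of samples, with differences of -0.75 ± 0.23 (SE, edgeR adjusted p = 0.135) and -0.49 ± 0.22 (SE, edgeR adjusted p = 0.317). So did *Ube2t*, with a log2 difference of -0.46. Thus 5 of the 43 members had all Collagen I samples below the control samples, and 2 had all of them above. The share of all genes with these orders is not given here. For 34 of the 42 genes that were not called the 95% interval lay within 2-fold, and the other 8 were *Brip1*, *Rad51ap1*, *Rad54l*, *Ube2t*, *Fanci*, *Exo1*, *Rmi2*, and *Eme1*.

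**Figure D3:**
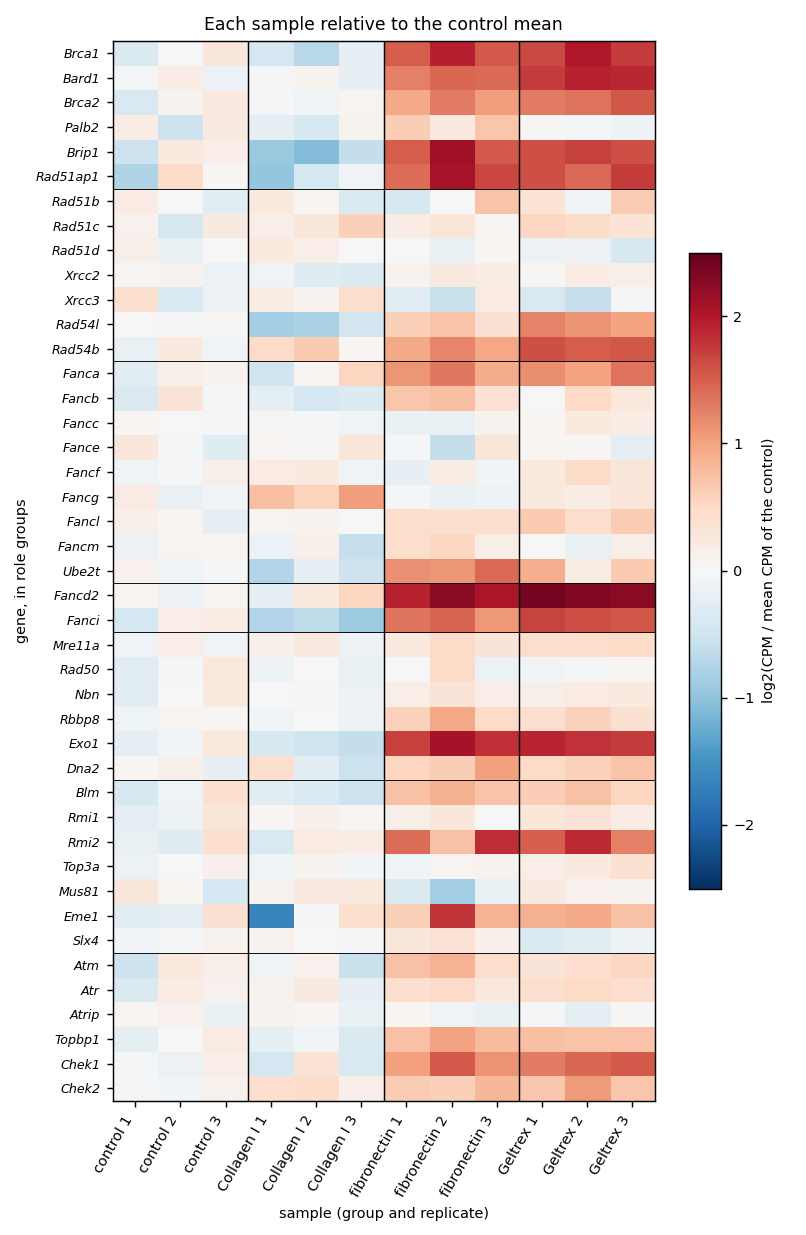
Log2 ratio of each sample's CPM to the control mean (color scale, blue lower and red higher) for the 43 genes (rows, by role) in the 12 samples (columns, by group and replicate). In 24 rows the 6 fibronectin and Geltrex™ samples are all above the other 6, and the rows of the filament complexes stay pale.

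The study compared Collagen I directly with fibronectin and Geltrex™, and there more of the genes passed the test. Collagen I was lower than fibronectin in 29 genes and higher in 2, where 22.9% of all genes were called lower and 22.1% higher, and the median log2 difference of the members was -0.62 against 0.022 over all genes. Of the members, 16 were lower by at least 2-fold, as were 3.60% of all genes. Collagen I was lower than Geltrex™ in 26 genes and higher in 3, against 19.0% and 18.2% of all genes, with a median of -0.51 against 0.026, and 15 were lower by at least 2-fold against 4.56% of all genes. With the Geltrex™ samples summed into 1, Collagen I was lower in 16 genes and higher in 0, as the calls of *Fancg*, *Rad51d*, and *Slx4* were lost. The 2 comparisons share the Collagen I samples. The largest difference was in *Brip1*, at -2.60 ± 0.22 (SE, edgeR adjusted p = 2.27e-07) against fibronectin and -2.50 ± 0.22 (SE, edgeR adjusted p = 3.48e-07) against Geltrex™. *Exo1* differed by -2.37 ± 0.19 (SE, edgeR adjusted p = 2.00e-07) and -2.32 ± 0.20 (SE, edgeR adjusted p = 2.43e-07), and *Brca1* by -2.10 ± 0.18 (SE, edgeR adjusted p = 3.66e-07) and -2.23 ± 0.18 (SE, edgeR adjusted p = 1.77e-07). *Fanci* differed by -2.05 ± 0.21 (SE, edgeR adjusted p = 2.36e-06) and -2.37 ± 0.21 (SE, edgeR adjusted p = 4.31e-07). In each of these 4 genes Collagen I had the lowest mean of the 4 groups, as it did in 23 of the 43 genes, while the control was lowest in 11, fibronectin in 5, and Geltrex™ in 4. The highest mean was on Geltrex™ in 20 genes, on fibronectin in 17, on Collagen I in 5, and in the control in 1. These orders of group means were not counted over all genes, so they have no background here.

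Some genes that changed by less than 2-fold against the control stood farther from Collagen I. The log2 difference of *Blm* on Collagen I was -1.16 ± 0.17 (SE, edgeR adjusted p = 7.61e-05) from fibronectin and -1.01 ± 0.17 (SE, edgeR adjusted p = 0.000321) from Geltrex™. *Topbp1* differed by -1.08 ± 0.11 (SE, edgeR adjusted p = 1.84e-06) and -0.95 ± 0.11 (SE, edgeR adjusted p = 6.13e-06). The genes that stood higher on Collagen I were *Fancg* and *Mus81* against fibronectin and *Fancg*, *Slx4*, and *Rad51d* against Geltrex™. *Fancg* was higher by 0.91 ± 0.16 (SE, edgeR adjusted p = 0.000368) and 0.55 ± 0.16 (SE, edgeR adjusted p = 0.013), and *Mus81* by 0.62 ± 0.17 (SE, edgeR adjusted p = 0.00876) than on fibronectin. *Rad51d*, a gene of the filament complexes, had 15.4, 12.4, and 13.8 CPM in the control, 16.3, 15.6, and 13.7 on Collagen I, 13.7, 12.1, and 14.3 on fibronectin, and 12.5, 12.4, and 10.4 on Geltrex™. The Collagen I samples of *Rad51d* were all above the Geltrex™ samples, with a difference of 0.36 ± 0.12 (SE, edgeR adjusted p = 0.0252), and this call was lost without Collagen I replicate 1 or 2 or Geltrex™ replicate 3. That of *Fancg* against Geltrex™ was lost without Collagen I replicate 3 or Geltrex™ replicate 2. When each sample was left out in turn, 20 of the 29 lower calls against fibronectin and 17 of the 26 against Geltrex™ were kept in all 12 analyses. *Nbn*, at -0.28 ± 0.11 (SE, edgeR adjusted p = 0.0474) against fibronectin, was the least stable and was kept in 2 of 12.

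Fibronectin and Geltrex™ differed from each other in 5 of the 43 genes. Fibronectin was higher in *Ube2t* and *Slx4* and lower in *Bard1*, *Rad54l*, and *Mus81*, against 10.3% and 9.06% of all genes. The difference was 0.62 ± 0.20 (SE, edgeR adjusted p = 0.0424) in *Ube2t*, -0.48 ± 0.12 (SE, edgeR adjusted p = 0.0125) in *Bard1*, -0.56 ± 0.15 (SE, edgeR adjusted p = 0.0147) in *Rad54l*, and -0.57 ± 0.17 (SE, edgeR adjusted p = 0.0295) in *Mus81*. The Geltrex™ replicates were closer to each other than those of any other group, with a chi-square per degree of freedom of 2.18 to 4.54 between pairs against 7.71 to 64.6 in the other groups. When their counts were summed and treated as 1 sample, 0 of the 5 passed. Apart from *Slx4*, each of these calls was also lost when certain single samples were left out: *Rad54l* without Geltrex™ replicate 1, *Bard1* without fibronectin replicate 1 or Geltrex™ replicate 2 or 3, *Ube2t* without any fibronectin replicate or Geltrex™ replicate 2 or 3, and *Mus81* without fibronectin replicate 1 or 2 or any Geltrex™ replicate. For 36 of the 38 genes that were not called the 95% interval stayed within 2-fold, the exceptions being *Palb2* and *Eme1*.

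Levels between genes were compared per kilobase of exon, as FPKM, here the CPM divided by the exon length in kilobases. On Collagen I the 21 genes called higher on both other coatings had a median of 0.399 FPKM, with a range from 0.0513 for *Rmi2* to 4.75 for *Mre11a*, and 16 of them were under 1 FPKM. The 17 genes called on neither had a median of 2.35 FPKM and a range from 0.167 for *Palb2* to 13.6 for *Nbn*, with 2 under 1 FPKM. *Fancd2* went from 0.210 FPKM in the control to 0.891 on fibronectin and 1.05 on Geltrex™, and *Rad50* from 13.2 to 14.5 and 13.0. The changed genes were thus mostly among those with the lower levels. In sum the 43 genes amounted to 415 to 499 CPM in the control, 423 to 475 on Collagen I, 589 to 693 on fibronectin, and 603 to 625 on Geltrex™.

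Promoters were examined because 21 of the 43 genes were called higher on both fibronectin and Geltrex™, while 17 were called on neither. RefSeq windows (GRCm38.p6) from 250 bases before to 50 bases after the start were found for 33 of the 43 genes and searched on both strands for words bound by cell cycle factors. The E2F words TTTCGCGC and TTTGGCGC were in 3 of 33 members (*Rad51c*, *Rmi1*, and *Topbp1*), in 0.929% of the 27025 genes with a window, and in 6 of 25 proliferation genes. Of the members with a word, *Topbp1* was called higher on both coatings and the other 2 on neither. The CHR words TTTGAA and TTCGAA were in 4 of 33 members, in 21.7% of all genes with a window, and in 11 of 25 proliferation genes. The word CCAAT, the binding site of NF-Y, was in 21 of 33 members, 41.1% of all genes with a window, and 19 of 25 proliferation genes. It was in 9 of 16 members called higher on both coatings and in 9 of 12 called on neither. No word contains another of these words. A match is a string of letters in a window, and the absence of these words says nothing of the factors.

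For 3 genes that rose on both coatings and 1 that was called on neither, the 150 bases before the start are shown on the strand of the gene, 5′ to 3′, from RefSeq. These genes were picked from windows that hold CCAAT and do not stand for all genes that rose. Capitals mark CCAAT or, where it lies on the other strand, ATTGG. The windows are chr11:86201194-86201343 (*Brip1*, minus strand), chr1:134962415-134962564 (*Ube2t*, plus), chr8:123318577-123318726 (*Fanca*, minus), and chr12:111813880-111814029 (*Xrcc3*, minus), and GENCODE M21 places no exon in any of them.
Brip1: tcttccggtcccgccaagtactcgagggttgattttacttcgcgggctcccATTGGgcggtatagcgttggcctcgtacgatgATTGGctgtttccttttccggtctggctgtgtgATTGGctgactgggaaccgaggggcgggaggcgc
Ube2t: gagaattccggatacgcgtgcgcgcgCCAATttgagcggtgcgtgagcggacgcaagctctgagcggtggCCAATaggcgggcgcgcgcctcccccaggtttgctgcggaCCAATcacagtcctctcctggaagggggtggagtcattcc
Fanca: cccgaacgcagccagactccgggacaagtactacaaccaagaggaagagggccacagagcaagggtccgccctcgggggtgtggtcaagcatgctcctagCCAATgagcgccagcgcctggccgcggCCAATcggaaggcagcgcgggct
Xrcc3: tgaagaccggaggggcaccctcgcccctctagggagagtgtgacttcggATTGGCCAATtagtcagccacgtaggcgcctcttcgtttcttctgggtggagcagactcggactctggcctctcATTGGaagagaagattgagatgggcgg
*Brip1* and *Ube2t* hold 3 copies each and *Fanca* 2. *Xrcc3*, which had means of 6.23 ± 1.82 CPM (SD, n = 3) in the control and 5.04 ± 0.99 CPM on Geltrex™, also holds 3. *Brca1*, *Rad51ap1*, and *Chek2*, which rose on both coatings and are not shown, hold 1 copy each in the same stretch.

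Other repair pathways were counted beside the members, from lists of genes outside the 43. For comparison, 17.1% of all genes tested were called higher and 14.7% lower on fibronectin, and 16.4% and 16.6% on Geltrex™. Of 27 other genes of recombination and crosslink repair, 8 rose and 2 fell on fibronectin and 7 rose and 2 fell on Geltrex™, with medians of 0.12 and 0.02 (log2). The extremes were the same on both: *Uhrf1*, a reader of DNA methylation at forks, rose by 1.57 ± 0.11 on fibronectin and 1.98 ± 0.11 on Geltrex™, and *Slx1b*, the nuclease held by SLX4, fell by 0.62 ± 0.20 and 1.03 ± 0.21 (log2 ± SE). Of 23 genes of damage signaling, 9 rose and 2 fell on fibronectin and 6 rose and 4 fell on Geltrex™. There *Clspn*, the fork adaptor for CHK1, had the largest increase, 1.65 ± 0.21 and 1.71 ± 0.21. The 13 genes of nonhomologous and theta-mediated end joining, the routes that join ends without a sister, gave 2 up and 2 down on fibronectin and 4 up and 2 down on Geltrex™. *Polq*, the theta polymerase, rose by 1.44 ± 0.22 on fibronectin, and *Nhej1*, an end-joining factor, fell by 0.91 ± 0.21 there. On Geltrex™ the changes in this list were smaller, from -0.60 to 0.82 (log2), and 0 genes were called with a change of at least 2-fold.

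Mismatch and excision repair were counted in the same way. The shares of all genes to set beside them are again 17.1% higher and 14.7% lower on fibronectin, and 16.4% and 16.6% on Geltrex™. In mismatch repair 3 of 7 rose on fibronectin and 1 of 7 on Geltrex™, in base excision repair 4 of 19 rose and 2 fell on fibronectin and 5 rose and 1 fell on Geltrex™, and in nucleotide excision repair 3 of 20 rose and 2 fell on fibronectin and 2 rose and 1 fell on Geltrex™. *Neil3*, a glycosylase known from dividing cells, had the largest increase in base excision repair, 1.43 ± 0.19 on fibronectin and 1.60 ± 0.19 on Geltrex™. The medians of these 3 lists lay between -0.07 and 0.29 on fibronectin and between 0.01 and 0.22 on Geltrex™. Among 22 targets of p53, 3 rose and 7 fell on fibronectin and 3 rose and 6 fell on Geltrex™. *Cdkn1a*, which encodes the cycle inhibitor p21, fell by 1.16 ± 0.09 on fibronectin and 0.87 ± 0.09 on Geltrex™. The largest increases among these targets were 0.54 ± 0.10 in *Trp53inp1* on fibronectin and 1.97 ± 0.10 in *Plk2*, a polo-like kinase gene, on Geltrex™. No difference between lists was tested.

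**Figure D4:**
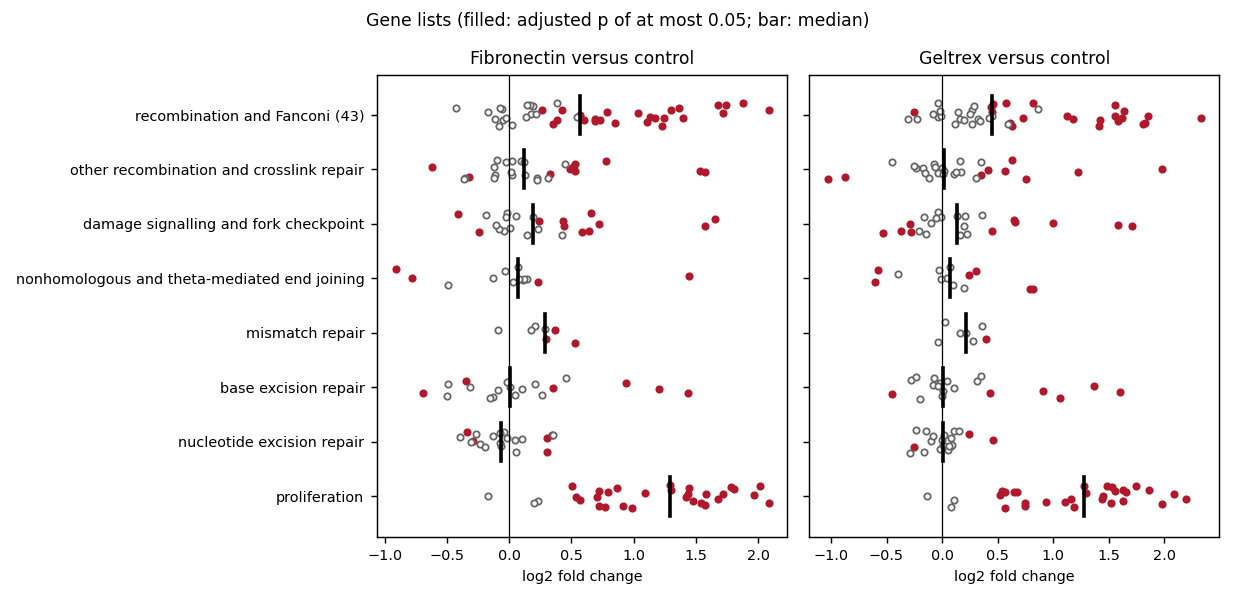
Log2 fold change (x axis) of each tested gene (points) in the 43 members and 7 other lists (y axis) on fibronectin (left) and Geltrex™ (right) relative to the control. Filled red points passed an adjusted p of at most 0.05 (edgeR) and vertical bars mark list medians, 0.57 and 0.45 for the members and 1.29 and 1.28 for proliferation, with the base and nucleotide excision repair lists near 0.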

How the data were processed

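Per the labels, the authors used Trimmomatic for trimming, HISAT2 for alignment, and featureCounts for counting. Versions, genome build, annotation, and strand setting are not given in the sources used here. The deposited values are raw counts for 55536 Ensembl genes in 12 samples, all of which matched GENCODE M21 (GRCm38), the source of names, positions, and exon lengths.

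The tests used edgeR 4.0.16 under R 4.3.3, with filterByExpr (minimum count 10, minimum total 15; 14499 genes), TMM scaling, and 1 quasi-likelihood fit of the 4 groups (8 residual degrees of freedom) with 6 comparisons, two-sided, and Benjamini-Hochberg adjustment over all genes tested. DESeq2 1.42.0 was an alternative. SEs are the size of the log2 fold change over the root of the F statistic, and 95% intervals are SEs times the t quantile at 8 degrees of freedom. The procedure was tested on simulated data. Per-sample values were given for members changed 2-fold or against the direction of most calls and for *Atm*, *Atr*, *Chek1*, and *Chek2*. Of the other members at most 2 per role (highest CPM) were given values, and of other lists values were given only for genes with the largest or smallest fold change among those called. Members and lists were chosen with earlier results of these data known. Lists are described by counts and medians, with no set test, and 1 gene of the list of other recombination genes is not reported here. Replicates with the same number were checked for pairing by the correlation of their deviations from group means: these lay between -0.15 and 0.23 over the 6 comparisons, and in no comparison were all 3 above 0.1, so no block was used.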

Additional observations from a re-analysis of the deposited data

How the results depend on the processing

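Alternatives were RLE scaling, DESeq2, no filter, at least 10 counts in every sample, only the groups compared, the replicate number as a block, the 3 Geltrex™ samples summed into 1, a fold change minimum, and each sample left out in turn. No called member changed direction. The median log2 fold change of the members kept its sign under these alternatives except between fibronectin and Geltrex™, where it ran from -0.08 to 0.02 when samples were left out. With a minimum of 2-fold, members called higher and lower numbered 14 and 0 on fibronectin, 13 and 0 on Geltrex™, and 0 and 0 on Collagen I against the control. They numbered 0 and 16 for Collagen I against fibronectin, 0 and 15 against Geltrex™, and 0 and 0 for fibronectin against Geltrex™. The 1 gene lower on Geltrex™ (*Slx4*) became 0 with RLE scaling, DESeq2, no filter, the replicate block, and summed Geltrex™ samples. Genes lower on Collagen I than in the control were 2 by DESeq2 and 1 with no filter, and higher genes were 0 with only the groups compared. On fibronectin 1 gene (*Mus81*) was lower with no filter. With the replicate block, fibronectin was higher than Geltrex™ in 1 gene, *Slx4*. The block also lost *Slx4* on fibronectin against the control and against Collagen I and *Ube2t* on Geltrex™, and gained *Atm* and *Top3a* (Geltrex™ against the control) and *Eme1* and *Xrcc3* (Collagen I against Geltrex™). With summed Geltrex™ samples, Collagen I was higher than Geltrex™ in 0 genes and lower in 16, and fibronectin was higher than Geltrex™ in 0 and lower in 0. Leaving out 1 sample gave 0 to 1 higher and 0 to 1 lower on Collagen I, 20 to 27 and 0 to 1 on fibronectin, and 19 to 24 and 0 to 1 on Geltrex™ against the control. It gave 2 to 3 and 23 to 29 for Collagen I against fibronectin, 1 to 4 and 18 to 27 against Geltrex™, and 1 to 3 and 1 to 4 for fibronectin against Geltrex™. *Rmi2* and *Eme1* are limited by their low counts. Causes of these shifts were not tested.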
